A study of Mus musculus with 4 samples.

Results

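Cardiac mesenchymal progenitors (CMPs) are Sca-1-positive cells from the atria of adult C57BL/6 mice. The genes described here are 10 that are used to follow the step between epithelial and mesenchymal cell states: the cadherins Cdh1 and Cdh2, the epithelial adhesion gene Epcam, the repressors Snai1, Snai2, Zeb1 and Zeb2, the bHLH factors Twist1 and Twist2, and the filament gene Vim. They were chosen by name, through the gene name that the array design gives each probe, which covers 10 of 22221 named genes and 13 of the 55681 probes. RNA was measured on 4 single-colour arrays, 1 for each condition. The CMP control was untreated. The other arrays hold CMPs transduced with Sendai virus carrying Oct4, Sox2, Klf4 and c-Myc (OSKM-CMPs, also written OKSM in the labels). These transduced cells were sampled at days 4, 6 and 8. The OSKM-CMPs were kept in a reprogramming medium without leukemia inhibitory factor and the untreated cells in a growth medium with bFGF, so the factors, the medium, the virus and the time in culture changed together and cannot be told apart. The study used the arrays to describe gene expression across the genome in transduced CMPs.

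Epithelial cells are held to each other by E-cadherin, the product of Cdh1, while mesenchymal cells carry N-cadherin (Cdh2) and filaments of vimentin. In the epithelial-to-mesenchymal transition (EMT), zinc finger proteins of the Snail and ZEB families bind E-box sequences in promoters such as that of Cdh1 and repress them, and the Twist proteins act alongside them. The reverse step, from mesenchymal to epithelial, is an early event when fibroblasts are reprogrammed to pluripotency.

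No condition had a replicate, so no test between conditions was made, and the number of arrays limits the precision. A value is given as the processed Cy3 signal of a probe and as the log2 difference to the control after the 75th percentile of each array (a signal of 388.5 to 411.1) had been subtracted. The error (±) is 1 SD from the error model of the scanner software and covers neither cultures nor RNA preparations. Errors of the arrays compared, and of averaged spots or probes, were combined as if independent. The small errors of Cdh1 between OSKM-CMP arrays, and of the Cdh2 and Zeb2 means, come in part from that averaging. A gene is said to have risen or fallen where it changed at least 2-fold and stood well above the background on at least 1 of the arrays compared. The 3 comparisons with the control share that 1 array. A gene or probe is called detected on an array where its signal was flagged as well above the background. The share of probes detected ran from 56.6% to 59.6% over the arrays, and no spot was saturated. Of the 8 markers of CMPs, all were detected on all 4 arrays, among them Ly6a, which encodes Sca-1. Ly6a rose by 2.69 from the control to day 8, while Thy1 fell by 1.78. Tcf21, a transcription factor of epicardial and cardiac fibroblast lineages, fell by 4.65. All 8 adipocyte markers rose at day 8, beside 14.3% of all genes. Of the 8, 4 were not detected in the control, so that only a bound can be given for them.

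Of the 13 probes, 10 were detected on all 4 arrays, and 9 of the 10 genes had at least 1 probe that was detected on at least 1 array. Cdh1 and Twist2 rose on all 3 days. Snai1 and Snai2 fell on all 3 days, and Cdh2 joined them at day 8. Twist1, Zeb1, Zeb2 and Vim changed less than 2-fold on every day, and Epcam was detected on none of the arrays. At day 4, 2 of the 9 genes rose and 2 fell, where 11.8% and 9.69% of all genes did. At day 6 the counts were again 2 and 2, beside 12.7% and 11.6% of all genes. At day 8, 2 rose and 3 fell, beside 14.3% and 11.7%. None of the 9 rose or fell between day 4 and day 6, between day 6 and day 8, or between day 4 and day 8, where 2.56%, 2.27% and 4.79% of all genes rose and 2.38%, 0.739% and 3.92% fell. With 9 genes, these shares say little about the members as a group, and each gene is described in turn.

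**Figure D1:**
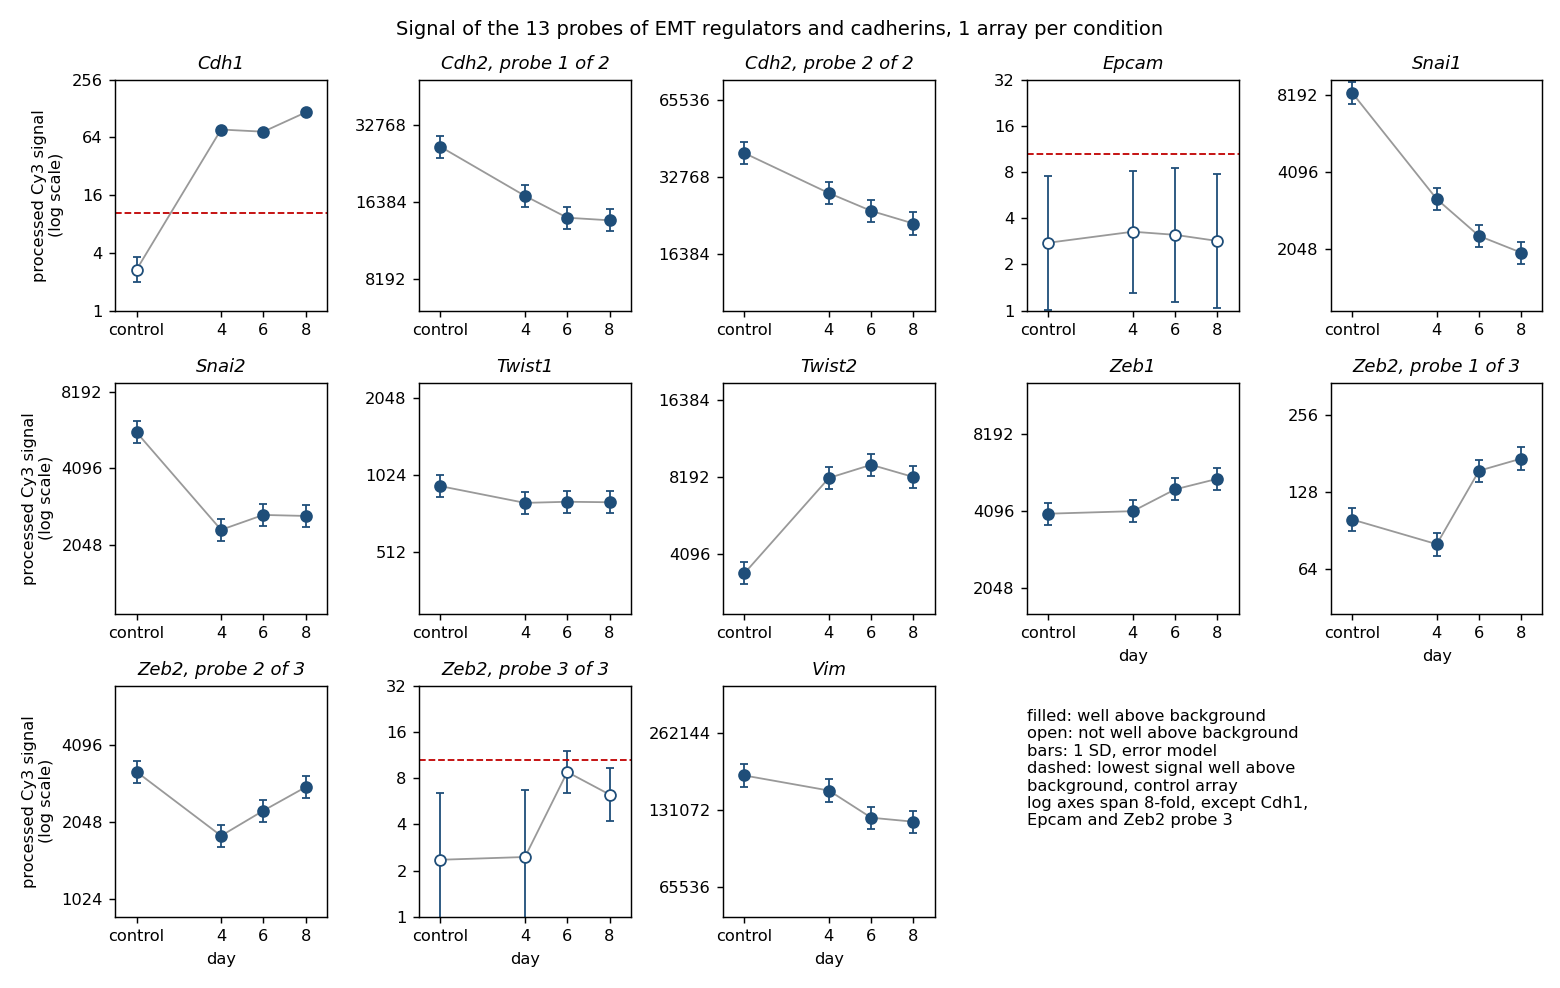
Processed Cy3 signal (log axis, not scaled between arrays) of each of the 13 probes on the control array and at days 4, 6 and 8; bars are 1 SD of the error model, open points are not well above background, and axes span 8-fold except for Cdh1, Epcam and the third Zeb2 probe. Cdh1 moves from 2.67 to between 73.48 and 116.76, Snai1 from 8336.58 to 1975.35 at day 8, and the Epcam points are all below the dashed line.

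Cdh1 encodes E-cadherin, the adhesion molecule of epithelial junctions. Its probe lies on chromosome 8 at 109193812-109193871 (mm9, as the array files give it) and was printed in 10 spots on each array. The mean signal was 2.67 in the control, and 77.40, 73.48 and 116.76 at days 4, 6 and 8. In the control none of the 10 spots was well above background, and 10 of 10 were on each of the other arrays. The spots ran from 2.07 to 4.29 on the control, then from 59.91 to 93.61, from 59.41 to 87.10 and from 98.10 to 135.29 at days 4, 6 and 8. The spots of the control therefore lay below all spots of every OSKM array, those of days 4 and 6 overlapped, and those of day 8 lay above both. Spots of 1 array share 1 RNA and are not replicates of a condition. Because the control gives only a bound, Cdh1 was at least 7.41-, 6.72- and 10.56-fold higher at days 4, 6 and 8. The measured log2 differences were 4.86 ± 0.43, 4.72 ± 0.43 and 5.37 ± 0.43. Between OSKM arrays both levels were measured: day 6 minus day 4 was −0.14 ± 0.07 and day 8 minus day 6 was 0.65 ± 0.07, below the 2-fold threshold. The size of the rise depended on how background was treated, and with a normexp correction that adds an offset of 50 the day 8 difference was 1.47.

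**Figure D2:**
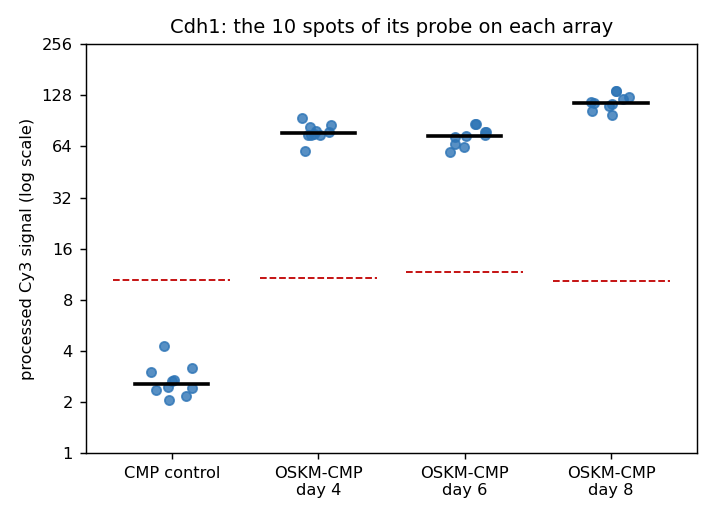
Processed Cy3 signal (log axis) of the 10 Cdh1 spots on each array, with a black bar at the median and a dashed red line at the lowest signal of any probe well above background on that array. All control spots, median 2.56, lie under the line, and all spots of days 4, 6 and 8, medians 76.71, 74.11 and 115.83, lie above it.

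Cdh2 encodes N-cadherin, the cadherin of mesenchymal, neural and cardiac muscle cells. It was read by 2 neighbouring probes on chromosome 18, at 16747386-16747445 and 16747559-16747618 (mm9). The first gave 26947.7, 17308.1, 14216.0 and 13889.8 in the order control, day 4, day 6 and day 8, and the second 40724.4, 28397.9, 24196.9 and 21591.2. Both probes were highest on the control array and lower on each later array. The mean of their log2 differences was −0.58 ± 0.14, −0.90 ± 0.14 and −1.01 ± 0.14 at days 4, 6 and 8. The day 8 value is within its error of the 2-fold threshold: the probes gave −1.03 and −0.99, and quantile normalization moved their mean to −0.75, under the threshold. Both Cdh2 probes were still detected at day 8, so the rise of Cdh1 came with a smaller drop of Cdh2 and not with its loss from the array.

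Among 21 other cadherins, 8 were detected both in the control and at day 8, which is called measured on both arrays here. Of these, Cdh11, a cadherin of mesenchymal and osteoblastic cells, rose by 1.58 and Cdh3, the P-cadherin of basal epithelia, fell by 2.06. Cdh3 was dim, with a signal of 66.07 in the control and 16.71 at day 8, and was not detected at day 4. The median difference of the 8 cadherins was −0.17, beside −0.06 over all genes measured on both arrays, of which 10.5% rose and 10.4% fell. Cdh5, the endothelial cadherin, went from a signal of 116.58 to 2.77, not well above background, and was at least 11.88-fold lower at day 8. Cdh19, a cadherin of Schwann cell precursors, was at least 2.84-fold lower and Cdh18 at least 2.06-fold higher. Cdh4 and Cdh22 were also detected at day 8 and not in the control, with bounds of 1.39- and 1.60-fold. Inside the cell, cadherins are tied to actin by catenins and their partners, and 17 of these 18 genes were measured on both arrays. Beside those shares of all genes, 10.5% and 10.4%, 1 of the 17 rose and 6 fell, with a median of −0.55 (−0.06 over all genes). Pkp2, a desmosomal plakophilin, rose by 1.74. Falls were measured for Jup, which encodes plakoglobin, at −1.98, Vcl, which encodes the actin linker vinculin, at −1.76, and Nectin2, a cell adhesion gene, at −1.34. Ctnna2, the neural alpha-catenin, differed by −2.93 ± 0.74 as the mean of 2 probes. Its day 8 signal of 12.66 was near the lowest signal well above background there, 10.36, so the size of its fall is uncertain. The catenin gene Ctnnd2 also fell, at −1.13 ± 0.15. Ctnnb1, Ctnna1 and Ctnnd1 were under 2-fold, at −0.16, −0.49 and −0.54.

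Epcam encodes an epithelial cell adhesion molecule and is a common marker of epithelial and pluripotent cells. Its probe gave 2.77, 3.27, 3.12 and 2.84 in the order control, day 4, day 6 and day 8, and none of these was well above background. The other flag of the software, for a positive and significant signal, was set for it at day 4 only. The lowest signals well above background on these arrays were 10.47, 10.73, 11.60 and 10.36. No fold change can be given for Epcam, and its level is known only to be under the range that the arrays resolve. It differs in this from Cdh1, which was likewise not detected in the control and left the background. The probe is shown because the call rests on this 1 sequence, which is placed at chr17:88048972-88049800 in mm9 and is split there over 829 bases:

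Epcam probe: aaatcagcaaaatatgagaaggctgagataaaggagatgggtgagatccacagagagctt

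E-boxes of the form CACCTG, or CAGGTG on the other strand, are the sequences that Snail and ZEB proteins bind. They were searched for on both strands in the 250 bases before each start site of the RefSeq table (GRCm38.p6), which held 6 of the 10 genes in 9 windows: Epcam, Snai1, Twist1, Twist2, Zeb2 and Vim. The motif was found in 2 of the 6 genes. The window of Epcam, chr17:87635729-87635978 on the plus strand, held it with its first base 187 and 19 bases before the start, and that of Snai1, chr2:167537945-167538194 on the plus strand, 126 bases before it. Over the 32851 windows of the table, 17.2% held the motif and 2.06% held it at least 2 times, while the looser CANNTG was in 66.2%. Of the 9 windows of the members, only those of Epcam and Snai1 held CANNTG. A match is a description of these letters and not a bound site. Cdh1 had no window in the table, and a link between the motif and the level of a gene was not tested. The windows of the 2 genes that held the motif follow, with the E-boxes in capitals:

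Epcam upstream window: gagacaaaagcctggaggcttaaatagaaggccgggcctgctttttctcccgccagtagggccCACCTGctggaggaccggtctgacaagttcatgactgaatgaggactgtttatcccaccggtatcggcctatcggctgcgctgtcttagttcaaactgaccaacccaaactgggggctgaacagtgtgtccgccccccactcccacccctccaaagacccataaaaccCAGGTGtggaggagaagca

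Snai1 upstream window: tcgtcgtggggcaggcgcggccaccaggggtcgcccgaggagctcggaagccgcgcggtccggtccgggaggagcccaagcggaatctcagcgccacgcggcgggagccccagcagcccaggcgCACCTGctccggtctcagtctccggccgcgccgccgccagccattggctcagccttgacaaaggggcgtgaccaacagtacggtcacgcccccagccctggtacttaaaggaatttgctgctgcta

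Snai1 encodes Snail, a zinc finger repressor of Cdh1. It gave 8336.58, 3201.42, 2297.51 and 1975.35 in the order control, day 4, day 6 and day 8, so that the control was highest and each later array was lower than the one before. The differences to the control were −1.38 ± 0.20, −1.92 ± 0.20 and −2.16 ± 0.20, the largest fall among the members. Day 6 minus day 4 was −0.54 ± 0.20 and day 8 minus day 6 was −0.23 ± 0.20, about the size of its error. Snai1 remained past 2-fold on all 3 days under every alternative run, between −1.25 and −1.52 at day 4 and between −1.99 and −2.42 at day 8. Of 14544 genes detected on all 4 arrays, those nearest to it over the 3 differences were Socs3, an inhibitor of cytokine signals through STAT, at −1.29, −1.86 and −2.17, Tbx4, a T-box factor, at −1.35, −1.83 and −2.07, and Sting1, a sensor adaptor of innate immunity, at −1.36, −1.91 and −2.30. Their Euclidean distances were 0.11, 0.13 and 0.14 on the log2 scale.

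Snai2 encodes Slug, the other Snail repressor of the list. Its signal was 5670.45 in the control and 2354.86, 2693.64 and 2669.05 at days 4, 6 and 8. The control stood above the other arrays, which were close together. The differences were −1.26 ± 0.20, −1.14 ± 0.20 and −1.17 ± 0.20. Unlike Snai1, which was lower by 0.78 ± 0.20 at day 8 than at day 4, Snai2 differed by 0.10 ± 0.20 between those arrays. The fall of Snai2 was near the threshold: quantile normalization left it at −1.01 at days 6 and 8, and with normexp as well it was −0.99 at day 6.

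Zeb1 and Zeb2 encode the ZEB repressors. Zeb1 gave 4005.55 in the control and 4097.59, 4987.92 and 5484.99 at days 4, 6 and 8, with differences of 0.04 ± 0.20, 0.25 ± 0.20 and 0.37 ± 0.20. It was highest at day 8, where its value was 0.11 when arrays were scaled by their median. Zeb2 had 3 probes on chromosome 2, of which 1, at 44965914-44965973, was detected on none of the arrays. The probe at 44840038-44840097 gave 99.96, 80.05, 155.16 and 173.11, with differences of −0.32 ± 0.21, 0.57 ± 0.21 and 0.71 ± 0.21. The probe at 44842774-44842833 gave 3207.98, 1801.90, 2259.92 and 2793.49, with −0.83 ± 0.20, −0.57 ± 0.20 and −0.28 ± 0.20. Both probes were lowest at day 4 and climbed to day 8, by 1.03 ± 0.21 and 0.55 ± 0.20, but they disagreed in sign against the control at days 6 and 8. Their mean, 0.22 ± 0.15 at day 8, therefore has no settled direction for Zeb2: it was −0.28 with the brightest probe alone and −0.05 with arrays scaled by their median. Neither ZEB gene shared the fall of the Snail genes past 2-fold.

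**Figure D3:**
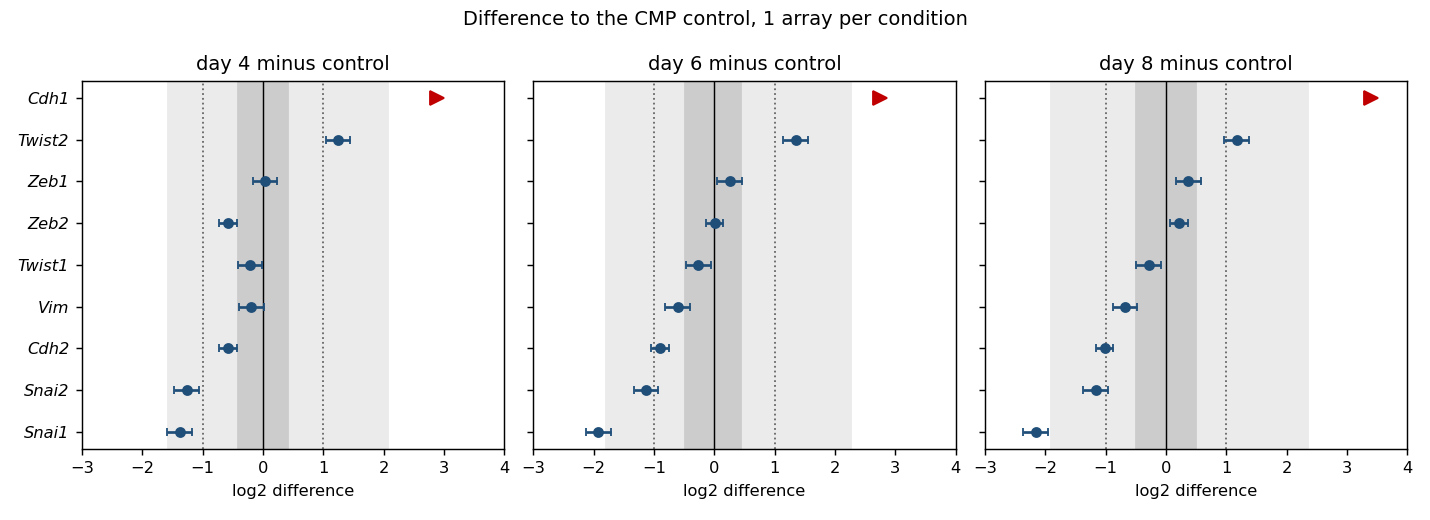
Log2 difference to the CMP control at days 4, 6 and 8 for the 9 measured genes, with 1 SD of the error model; red arrowheads are the lower bounds for Cdh1, the dark and light bands hold the middle 50% and 90% of all genes, and dotted lines mark 2-fold. Cdh1 and Twist2 lie right of the upper line on each day, and Snai1 and Snai2 left of the lower one.

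Twist1 and Twist2 encode bHLH factors of mesenchyme that pair with E proteins. Twist2 gave 3441.13 in the control and 8125.54, 9149.33 and 8193.13 at days 4, 6 and 8. The control was the lowest array, and the other arrays lay close together. The differences were 1.24 ± 0.20, 1.35 ± 0.20 and 1.17 ± 0.20, so that Twist2, a mesenchymal factor, rose on the same arrays as Cdh1. The day 8 value was 0.91, under 2-fold, when arrays were scaled by their median. The genes nearest to Twist2 over the 3 differences were Csf2ra, a subunit of the GM-CSF receptor, at 1.22, 1.35 and 1.14, the cytochrome P450 gene Cyp2s1 at 1.24, 1.39 and 1.18, and the ubiquitin ligase gene Rnf125 at 1.19, 1.34 and 1.16, with distances of 0.04, 0.04 and 0.05. Twist1 gave 925.71, 796.20, 804.17 and 800.80, with differences of −0.21 ± 0.20, −0.27 ± 0.20 and −0.29 ± 0.20. These were little larger than their error, so that Twist1 did not follow its paralog past 2-fold.

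The partners of these factors were 28 E proteins, Id proteins, corepressors and modifiers, of which 27 were measured on both arrays. One of them rose at day 8 and 6 fell, where 10.5% and 10.4% of all genes did, and their median was −0.32 (−0.06 over all genes). The bHLH gene Hand1 rose by 1.30. The Id genes, which encode HLH proteins that hold E proteins away from DNA, included 3 that fell, Id1 at −1.20, Id3 at −1.81 and Id4 at −1.78, while Id2 was at 0.27. The E protein genes Tcf3, Tcf4 and Tcf12 were at 0.19, 0.65 and 0.30. Lats2 and Pak1, kinases that modify Snail, fell too, at −1.51 and −1.32, as did Ezh2, a histone methyltransferase gene, at −1.25. The corepressor genes Ctbp1, Hdac1 and Kdm1a were at −0.56, −0.53 and −0.14.

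Vim encodes vimentin, the intermediate filament of mesenchymal cells, and its probe lies on chromosome 2 at 13504232-13504291 (mm9). Its signal was 178742 in the control and 156065, 122171 and 117839 at days 4, 6 and 8. The control was highest and no array was saturated. The differences were −0.19 ± 0.20, −0.61 ± 0.20 and −0.68 ± 0.20, all under 2-fold, and Vim was detected at every time. Of 14 other filament and lamin genes, 8 were measured on both the control and day 8 arrays, with a median of −0.10 (−0.06 over all genes). None of the 8 rose and 3 fell, beside 10.5% and 10.4% of all genes, and with 8 genes these counts say little about the group. Those that fell were Lmnb1, which encodes lamin B1, at −2.17, Nes, which encodes nestin, at −1.70, and Lmna at −1.28. Prph, the peripherin gene, was at least 2.98-fold higher.

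The epithelial genes that accompany Cdh1 moved unevenly. Of 37 junction and keratin genes, 18 were detected in the control and 27, 26 and 27 at days 4, 6 and 8. Between the control and day 8, 10 of the 37 (27.0%) went from not detected to detected and 1 went the other way, beside 4.61% and 2.27% of all 22221 named genes. Of the 17 genes measured on both arrays, 6 rose and 1 fell, beside 10.5% and 10.4% of all genes measured on both, and their median was 0.56. Krt14, a keratin of basal epithelia, rose by 4.92, Krt19 by 2.75, F11r, which encodes the tight junction molecule JAM-A, by 2.47 and Spint2, a protease inhibitor gene, by 1.39. Krt8, a keratin of simple epithelia, was at least 71.58-fold higher and Dsp, which encodes desmoplakin, at least 81.74-fold. Cgn and Mal2 were at least 6.99- and 5.93-fold higher. Against this, Krt18, the partner of Krt8, differed by 1.09 at day 4 and by −0.78 at day 8, the claudin gene Cldn15 fell by 2.60 and Cldn4 was at −0.02. Of 15 epithelial regulators, 9 were measured on both arrays, and 2 rose, 2 fell and the median was −0.24, beside 10.5%, 10.4% and −0.06 for all genes. Grhl3 rose by 3.04 and Trp63 by 1.46, while the splicing regulator gene Esrp2 fell by 1.53 and Klf5 fell by 1.41. Grhl1 was at least 4.39-fold higher, and Grhl2, Ovol1, Elf3 and Foxa1 were, like Epcam, never detected.

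Markers of other cell types moved on the same arrays. Over all 22221 named genes, 3.74%, 3.59% and 4.61% went from not detected in the control to detected at days 4, 6 and 8. The shares that went the other way were 2.68%, 2.97% and 2.27%. With 8 or 12 markers a list, the counts below say little about a cell type. Of 12 epithelial markers, Cdh1 and Epcam among them, 6 were detected in the control and 9 on each OSKM array, and Epcam, Grhl2 and Crb3 were never detected. Their summed level, in units of the 75th percentile of the array, was 13.02 in the control and 20.03 to 22.30 on the OSKM arrays, with the largest part from Ovol2 or Krt19. Of 8 mesothelial and epicardial markers, which belong to cells that form an epithelial sheet on the heart, 7 were detected in the control and 5 on each OSKM array. Their summed level went from 6.61 to between 19.05 and 25.31, through Msln, which rose by 6.45 at day 8, and Krt19, which is in both lists. In the same list Wt1 and Lrrn4 were at least 10.85- and 5.45-fold lower, and Upk3b and Tbx18 fell, at −3.10 and −2.19. Of 8 endothelial markers, 8 were detected in the control and 4 at day 8, and their summed level was 2.07 in the control and 1.15 to 1.26 later, with Kdr giving the largest part. The 8 Schwann cell markers had 5, 4, 4 and 5 detected in the order of the arrays, with sums of 3.06 to 4.84 that came mostly from S100b. Of 8 leukocyte markers, 7 were detected in the control and 5 or 6 later, with sums of 1.19 to 1.27. Of 8 cardiomyocyte markers, 2 were detected in the control and 5 or 6 later, with sums of 11.96 in the control and 4.20 to 6.75 later, nearly all of it from Tnnt2. In RNA from whole cultures, fewer cells of a type and less RNA per cell cannot be told apart, and the part that these cell types had in the values of Cdh1, Cdh2 and the other genes was not tested.

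On the mesenchymal side, 17 of 19 other transcription factors of mesenchyme were measured on both arrays, and 4 rose and 7 fell, beside 10.5% and 10.4% of all genes, with a median of 0.19 (−0.06 over all genes). Prrx2, a homeobox factor of mesenchyme, rose by 3.21, Klf8 by 1.94 and Foxf1 by 1.54. Besides Tcf21 and Tbx18, Six2 and Foxf2 fell, at −3.58 and −2.30, and Lef1 was at least 2.51-fold higher. Of 41 mesenchymal effector genes, 39 were measured on both arrays, and 6 rose and 15 fell, beside 10.5% and 10.4% of all genes, with a median of −0.54 (−0.06 over all genes). Acta2 and Tagln, which encode smooth muscle actin and transgelin, fell, at −5.09 and −4.78, as did the matrix gene Tnc at −2.33. Lum and Dcn, which encode the collagen-binding proteoglycans lumican and decorin, rose by 4.83 and 3.06, Igfbp4 by 2.23 and Mmp2, a matrix metalloproteinase gene, by 2.12. The fibronectin gene Fn1 and the collagen genes Col1a1 and Col1a2 were at −0.14, −0.23 and −0.12.

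TGF-beta and BMP signals act upstream of the Snail genes, and 19 of 20 genes of these pathways were measured on both arrays. Of these, 5 rose and 6 fell at day 8, where 10.5% and 10.4% of all genes did, and the median was −0.57 (−0.06 over all genes). Bmp4 fell by 3.24. Inhba, which encodes an activin subunit, Tgfb1 and Smad7, an inhibitory SMAD gene that TGF-beta induces, also fell, at −2.21, −1.98 and −1.92. Tgfbi, a TGF-beta-induced matrix gene, rose by 2.04, Bmp2 by 1.95, Ltbp2 by 1.79 and the coreceptor gene Tgfbr3 by 1.37. The receptor gene Tgfbr2 was at 0.24 and Smad4 at −0.30.

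**Figure D4:**
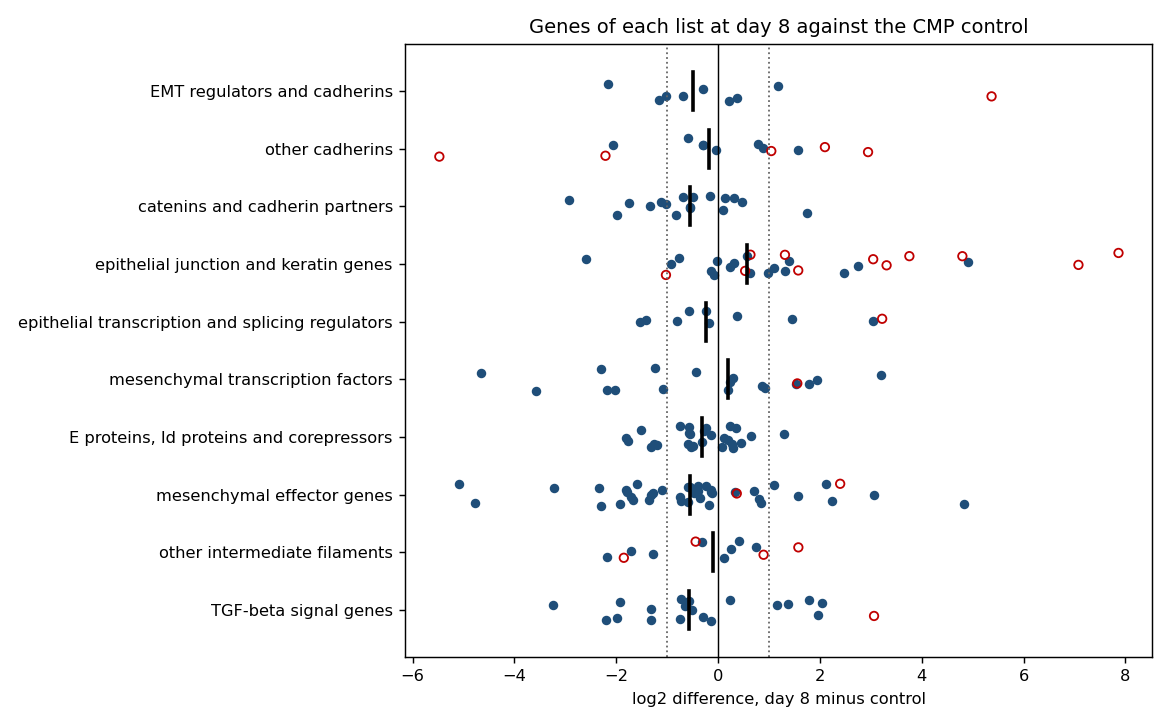
Log2 difference between day 8 and the CMP control for every gene of each list that was detected on at least 1 of the 2 arrays; blue points were detected on both, red open points on 1 only and are plotted at their measured value, black bars are medians of the blue points, and dotted lines mark 2-fold. The epithelial junction and keratin genes have the highest bar, at 0.56, and the TGF-beta signal genes the lowest, at −0.57.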

How the data were processed

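RNA of 4 samples, 1 per condition, was hybridised to Agilent SurePrint G3 Mouse arrays and read in Cy3. The authors deposited Feature Extraction files (10.7.3.1 per the file headers, 9.5.3 per the labels) with a background-subtracted processed signal intensity, its error and flags for each of 62976 spots. Their normalized log2 values from GeneSpring, also deposited, were used as an alternative. They differ from the values used here only by a constant for each array. Probe positions are those of the files (mm9).

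Control and outlier spots were left out, log2 signals were averaged per probe, and each array was scaled by subtracting its 75th percentile. A probe counted as well above background where most of its spots were flagged so. The 35543 probes (63.8%) flagged on at least 1 array were kept, and probes of a gene were averaged, over 16657 genes. Gene names came from RefSeq (GRCm38.p6 table) (26762 by accession, 3819 by symbol, 639 by synonym, 24461 unmatched). A gene not well above background on 1 array is given as a bound, the bright level over the higher of the dim signal and the lowest signal well above background there.

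The members and the gene lists were chosen with earlier results of these data known. Genes named outside the members were up to 4 rises and 4 falls per list at day 8, past 2-fold and in 1 direction on all days, and bounds past 2-fold; others, such as Ctnnb1, Cldn4, Krt18, Id2, Ezh2 and Fn1, were added after their values were seen. Some genes that this rule names are not reported here. Marker lists for other cell types are given by counts and sums. Alternatives were quantile normalization with and without a normexp correction (offset 50), scaling by the array median, the authors' values, other filters on dim probes, a floor, the brightest probe, outlier spots kept, other detection flags and thresholds of 1.5- and 3-fold. The scripts were tested on simulated data. Python 3.11.15, numpy 2.4.6, pandas 2.3.3, matplotlib 3.10.9, R 4.3.3 and limma 3.58.1 were used.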

Additional observations from a re-analysis of the deposited data

How the results depend on the processing

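Of 240 values of single members under alternative settings, 214 moved by less than the error model allows and the others further. Part of the 214 could not move. The 27 under the authors' values and the 27 with outlier spots kept were fixed in advance, for the reasons given below. The filters on dim probes and the floor change only dim probes, which fixed the 24 unmoved values under each. The brightest probe could move only Cdh2 and Zeb2, the members with several kept probes. Scaling by the array median shifts all differences of a comparison by the same constant, so there the labels only compare that constant with the error. The 214 therefore overstates how many values were put to a test. In 8 of the 240 the sign changed, all of them for Zeb1 or Zeb2. Zeb2 at day 8 became −0.049 with the array median as the scale and −0.28 with the brightest probe. Zeb2 at day 6, at 0.0023, changed sign under 5 settings, to −0.57 with the brightest probe and to between −0.13 and −0.00051 under the others, and Zeb1 at day 4, at 0.04, became −0.11 with the array median. The array median shifted every difference by −0.14, −0.13 and −0.27 at days 4, 6 and 8, and the median of all genes at day 8 to −0.30. Under it 1 member rose at day 8, and the day 8 medians were −0.55 for the members, −0.31 for other cadherins, −0.82 for catenins and partners, 0.78 for epithelial junction and keratin genes, −0.48 for epithelial regulators, −0.058 for mesenchymal transcription factors (0.21 before), −0.59 for E proteins and corepressors, −0.74 for mesenchymal effectors, −0.37 for other filaments and −0.81 for TGF-beta genes. All of these are over genes well above background on at least 1 array. With the 75th percentile as the scale, the median of the members was −0.29 and that of the epithelial junction genes 1.04. The latter was 0.25 with normexp and quantile normalization, 0.66 with no filter, 0.30 with probes well above background on all 4 arrays and 0.81 with the brightest probe. With no filter the median of epithelial regulators changed sign to 0.13 (from −0.21) and that of other filaments became 0.13, and with quantile normalization that of other cadherins became −0.32.

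With normexp and quantile normalization, 1 member fell at day 6. With probes well above background on all 4 arrays, 1 member rose on each of the 3 days, since Cdh1 then has no probe. At a threshold of 1.5-fold, 4 members fell at day 6 and 4 at day 8. At 3-fold, 1 rose on each day, and 0, 1 and 1 fell at days 4, 6 and 8. Cdh1 depended most on the background: its differences were 1.21, 1.12 and 1.47 with normexp and 2.89, 2.75 and 3.40 with a floor on dim values. The authors' values and keeping outlier spots could move no member beyond its error. The authors' values differ from those used here by a constant for each array, and no member probe had an outlier spot. No paired analysis was possible because there is 1 array a condition, so no array could be left out either. With the flag for a positive and significant signal, 12 member probes counted as detected at each of days 4, 6 and 8, where 11 were well above background. In the control it was 10 with either flag. The added probe was that of Epcam at day 4 and the third Zeb2 probe at days 6 and 8. Probes near background, such as that of Epcam, give only bounds.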
